A study of Mus musculus with 12 samples.

Results

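Elastic fibres give arteries, valves and the matrix between heart muscle cells their recoil. Their core is cross-linked elastin, which is laid down on a scaffold of microfibrils made of fibrillin and of microfibril-associated proteins, while fibulins and emilins join elastin to that scaffold and to cells. In the heart these proteins are made mainly by fibroblasts, smooth muscle cells and endocardial or valve cells, and the same scaffold holds latent TGF-beta in the matrix. Here 10 genes of this system were followed across 4 groups of mouse hearts. They are Eln, the fibrillin genes Fbn1 and Fbn2, the microfibril-associated genes Mfap2, Mfap4 and Mfap5, the fibulin genes Fbln1, Fbln2 and Fbln5, and the emilin gene Emilin1. They were taken by gene symbol from the deposited table of 25171 loci, each symbol matched 1 row, and all 10 passed the filter on low counts in every comparison.

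RNA of heart tissue was sequenced from 12 mice, 3 labelled as biological replicates in each group. Every mouse carried, inserted at Rosa26, NOTCH2NLC with 98 GGC repeats behind a stop sequence flanked by loxP sites. EIIa-tg mice (E2a in the labels) also carried EIIa-Cre, which acts throughout the body from the embryo on, and EIIa-ctl were littermates without this Cre, both taken at postnatal day 30. The genotype labels of EIIa-tg replicates 2 and 3 differ from that of replicate 1, and these hearts were grouped by their titles. By the paper Myh6-tg and Myh6-ctl mice both carried Myh6-creERT2, a Cre made in cardiomyocytes and switched on by tamoxifen. From day 60 Myh6-tg mice received 3 injections of tamoxifen at 75 mg per kg and Myh6-ctl mice received corn oil, and hearts were taken at day 90. Tamoxifen and expression of the repeat therefore cannot be told apart in this model.

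Between 38343106 and 50969834 reads were counted per heart. Transcripts of the Y chromosome were counted in replicate 1 of every group, with 4224 to 7307 counts, and at most 2 counts elsewhere, so each group held the same mix. The 13 mitochondrial protein genes took 31.8% to 38.3% of counts in Myh6-ctl and 15.5% to 18.6% in Myh6-tg hearts. Esr1, the estrogen receptor gene from which Cre fusions that respond to tamoxifen are built, had 1031 to 2331 normalized CPM in Myh6-ctl hearts. It had 1.00 to 2.52 in Myh6-tg and 0.408 to 1.23 in EIIa hearts, although both Myh6 groups carry the Cre by their labels. The cause was not tested, and what lies behind this difference cannot be told apart from tamoxifen or the repeat. The transcript of the transgene itself was not analysed here. Normalized CPM are counts scaled to the TMM-adjusted total of each heart. The floor of 3 counts equals 0.0568 to 0.0815 CPM and covers counting error only.

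Promoter sequences are shown for Fbln2 and Mfap2, which rose in both transgenic groups, and for Fbln1, of the same family as Fbln2, which rose in EIIa-tg hearts and was not called in Myh6-tg hearts. They are the 250 bases before and 50 after a RefSeq start site on GRCm38.p6, and the RefSeq table used held such windows for 6 of the 10 genes. The windows are chr6:91212514-91212813 for Fbln2, chr15:85205758-85206057 for Fbln1, the more downstream of its pair of starts, and chr4:141010431-141010730 for Mfap2, likewise the downstream start, all on the plus strand. Capitals mark GGGCGG, a GC box, on either strand.
Fbln2: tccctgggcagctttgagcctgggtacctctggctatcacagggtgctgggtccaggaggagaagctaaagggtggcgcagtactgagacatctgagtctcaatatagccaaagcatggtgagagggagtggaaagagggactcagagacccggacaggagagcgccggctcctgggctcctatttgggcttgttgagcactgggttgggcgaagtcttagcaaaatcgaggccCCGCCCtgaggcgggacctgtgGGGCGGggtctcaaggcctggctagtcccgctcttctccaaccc
Fbln1: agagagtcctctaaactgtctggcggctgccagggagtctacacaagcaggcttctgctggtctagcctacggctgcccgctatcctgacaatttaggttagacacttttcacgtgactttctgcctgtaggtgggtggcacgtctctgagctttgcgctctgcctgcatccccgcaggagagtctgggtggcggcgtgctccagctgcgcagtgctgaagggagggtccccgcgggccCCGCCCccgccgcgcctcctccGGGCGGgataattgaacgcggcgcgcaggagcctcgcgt
Mfap2: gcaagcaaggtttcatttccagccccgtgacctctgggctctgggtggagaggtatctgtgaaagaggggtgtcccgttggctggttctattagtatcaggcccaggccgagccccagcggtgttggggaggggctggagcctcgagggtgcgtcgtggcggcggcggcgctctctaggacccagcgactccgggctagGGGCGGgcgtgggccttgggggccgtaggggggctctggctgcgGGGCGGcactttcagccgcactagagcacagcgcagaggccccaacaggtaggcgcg
Fbln2 and Fbln1, of which only the former was called in Myh6-tg hearts, carried the motif at like places, at -16 and 6 bases from the start in Fbln2 and at -11 and 11 in Fbln1. In Mfap2 it lay at -51 and -7. The upstream windows of Fbln1 and Mfap2 held no match, so these places depend on the start chosen. The motif was found in 5 of the 9 windows of the 6 genes, against 35.7% of all 32851 promoters of the same length. TATAAA (13.6% of all promoters) and TGANTCA (7.81%), searched on both strands, were in none of the 9 windows. GGAATG (14.7%) was in 1 of them, the upstream window of Mfap2. A match of letters describes the window and shows no binding.

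The members' summed level was highest in Myh6-tg hearts. EIIa-ctl hearts had 553 ± 112 normalized CPM (SD, n = 3) and EIIa-tg hearts 824 ± 181. Myh6-ctl hearts had 647 ± 50.5 and Myh6-tg hearts 2321 ± 433. The lowest Myh6-tg heart, replicate 1, had 1821, still above every other heart, whose highest value was 1030. In RNA of a whole tissue, more cells of a type and more RNA per cell cannot be told apart.

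**Figure D1:**
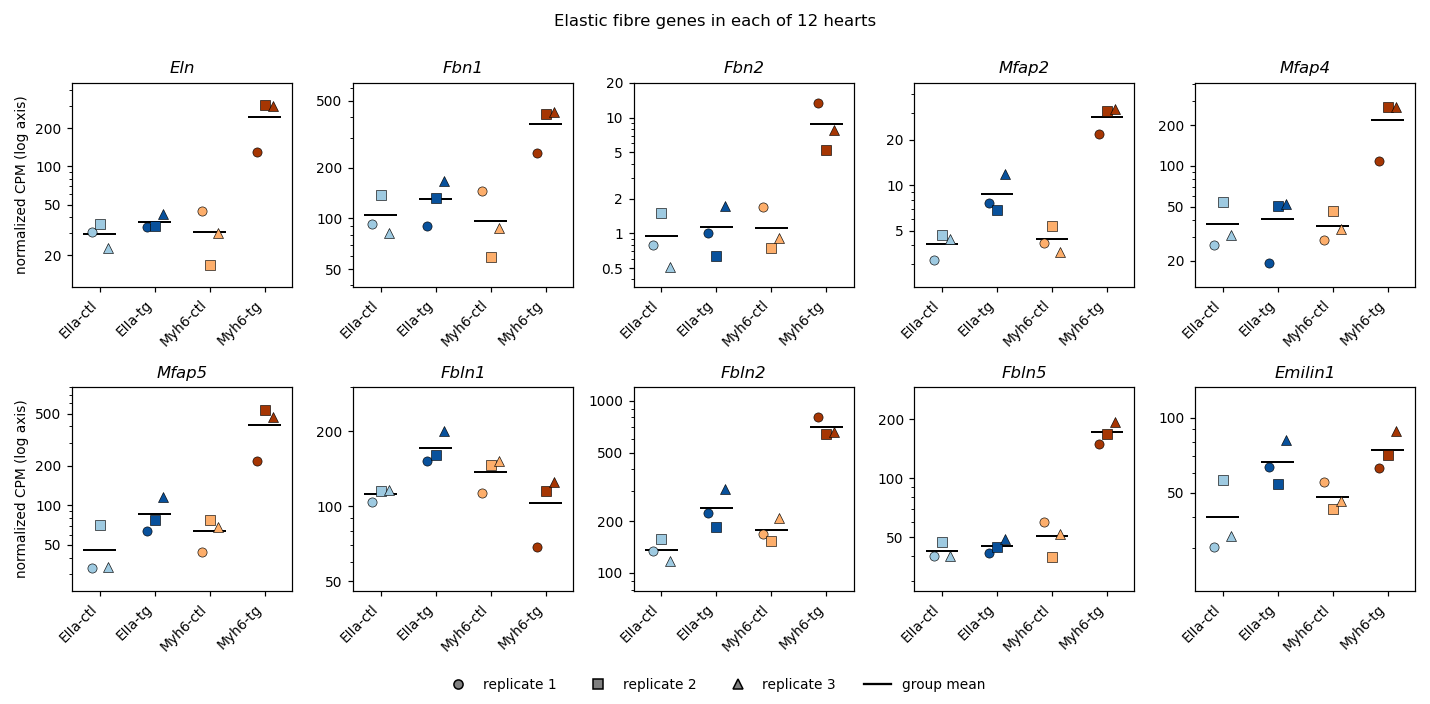
Each panel plots 1 gene, with normalized CPM on a log axis and the 12 hearts by group. Symbols are replicates and the bar is the group mean. In 8 panels the 3 Myh6-tg hearts lie above all other hearts, in Emilin1 they reach 62.8 to 88.4 CPM beside EIIa-tg hearts at 54.3 to 81.6, and in Fbln1 they lie at 68.5 to 125, among or below the others.

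The comparison of Myh6-tg with Myh6-ctl hearts asked how the repeat, expressed in adult cardiomyocytes, went with expression in the heart. Of the 10 genes, 8 rose and none fell at a Benjamini-Hochberg adjusted p under 0.05 in edgeR's quasi-likelihood test, where 8.96% of the 15298 genes tested were called higher. Their log2 fold changes ran from 1.76 for Fbln5 to 3.01 for Eln. Emilin1 and Fbln1 were not called. The median over the 10 genes was 2.29, and over all genes tested 0.03. In 9 of the 10 every Myh6-tg heart was above every Myh6-ctl heart, against 20.6% of all genes. At the stricter thresholds of the study (adjusted p below 0.01 with a change of at least 1 on the log2 scale), applied here to edgeR's test, the number was 7, without Fbn1, where 1.92% of all genes were called higher. With DESeq2, the tool of the study, 8 passed these thresholds, Fbn1 included, where 5.09% of all genes were called higher.

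Eln (ENSMUSG00000029675, GRCm38 chr5:134702593-134747323, minus strand, 37 exons in its longest coding transcript) encodes tropoelastin, the soluble unit of the fibre core. It had 44.5, 16.8 and 29.6 CPM in Myh6-ctl and 130, 304 and 296 CPM in Myh6-tg replicates 1, 2 and 3. The groups lay far apart, although replicate 1, the only Myh6-tg heart with Y transcripts, lay well below the other Myh6-tg hearts. The log2 fold change was 3.01 ± 0.46 (SE, adjusted p = 0.00700, edgeR), a change of 8.05-fold.

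The fibrillins form the backbone of microfibrils. Fbn1 (ENSMUSG00000027204, chr2:125300594-125507993, minus strand, 65 exons), the main fibrillin of adult tissue, had 145, 58.7 and 87.6 CPM in Myh6-ctl and 245, 420 and 428 CPM in Myh6-tg hearts. The groups did not overlap. Its log2 fold change was 1.91 ± 0.38 (adjusted p = 0.0153, edgeR), and it was not called when Myh6-ctl replicate 3 (adjusted p = 0.0603), Myh6-tg replicate 2 (0.0520) or Myh6-tg replicate 3 (0.0505) was left out. Gm9913, annotated on the opposite strand over 20.1% of the exonic bases of Fbn1, had at most 0.173 CPM in any group.

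Fbn2 (ENSMUSG00000024598), the fibrillin best known from development, was scarce in controls, with 1.70, 0.751 and 0.911 CPM in Myh6-ctl hearts. It reached 13.4, 5.23 and 7.89 CPM in Myh6-tg hearts. Here replicate 1 was the highest of its group, the reverse of Eln and Fbn1. It rose by 2.97 ± 0.47 on the log2 scale (adjusted p = 0.00808, edgeR). These levels rest on 29 to 75 reads in Myh6-ctl and 241 to 626 reads in Myh6-tg hearts.

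Mfap2 and Mfap5 encode the microfibril-associated glycoproteins, which bind fibrillin. Mfap2 (ENSMUSG00000060572, chr4:141010418-141015984, plus strand) had 4.14, 5.36 and 3.59 CPM in Myh6-ctl and 21.9, 31.0 and 31.9 CPM in Myh6-tg hearts. It had the lowest adjusted p of the 10 genes, and rose by 2.70 ± 0.25 on the log2 scale (adjusted p = 0.00176, edgeR). Mfap5 (ENSMUSG00000030116, chr6:122505845-122529290, plus strand) had 44.2, 78.0 and 69.0 CPM in Myh6-ctl and 218, 534 and 470 CPM in Myh6-tg hearts. Replicate 1 was the lowest of its group in both conditions. The log2 fold change of Mfap5 was 2.68 ± 0.39 (adjusted p = 0.00596, edgeR).

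Mfap4 (ENSMUSG00000042436, chr11:61485431-61488900, plus strand), a fibrinogen-related protein that binds tropoelastin and microfibrils, had 28.2, 46.2 and 34.2 CPM in Myh6-ctl hearts. In Myh6-tg hearts it had 109, 275 and 272 CPM. As for Eln and Mfap5, replicates 2 and 3 were alike and replicate 1 lay below them. Mfap4 rose by a log2 fold change of 2.60 ± 0.39 (adjusted p = 0.00685, edgeR).

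The 3 fibulin genes did not move alike. Fbln5 (ENSMUSG00000021186, chr12:101746565-101819055, minus strand), whose protein guides elastin onto microfibrils, had 59.7, 39.9 and 52.0 CPM in Myh6-ctl and 150, 169 and 194 CPM in Myh6-tg hearts. Its log2 fold change was 1.76 ± 0.21 (adjusted p = 0.00386, edgeR). Fbln2 (ENSMUSG00000064080, chr6:91212455-91272540, plus strand), a fibulin of basement membranes and of developing valves, had 169, 154 and 210 CPM in Myh6-ctl and 803, 646 and 659 CPM in Myh6-tg hearts. In Fbln2 replicate 1 was the highest Myh6-tg heart, and the log2 fold change was 1.98 ± 0.22 (adjusted p = 0.00296, edgeR).

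Fbln1 (ENSMUSG00000006369, chr15:85205949-85286535, plus strand), a fibulin of basement membranes and elastic fibres, had 113, 147 and 153 CPM in Myh6-ctl hearts. It had 68.5, 115 and 125 CPM in Myh6-tg hearts. The groups overlapped, and the log2 fold change of -0.42 ± 0.26 was not called (adjusted p = 0.304, edgeR). Each Myh6-tg heart was below the Myh6-ctl heart of the same number, and with the replicate number as a block the estimate was -0.45 ± 0.18 (unadjusted p = 0.0393, adjusted p = 0.117, edgeR). Its estimate was below 0 in all 19 alternative settings, from -0.58 to -0.0042.

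Emilin1 (ENSMUSG00000029163, chr5:30913402-30921277, plus strand), a glycoprotein at the border of elastin and microfibrils that also restrains the maturation of TGF-beta, had 55.1, 43.0 and 46.2 CPM in Myh6-ctl and 62.8, 70.5 and 88.4 CPM in Myh6-tg hearts. The groups did not overlap, but the log2 fold change of 0.62 ± 0.19 missed the threshold (adjusted p = 0.0616, edgeR). It was called in 6 of 19 alternative settings.

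**Figure D2:**
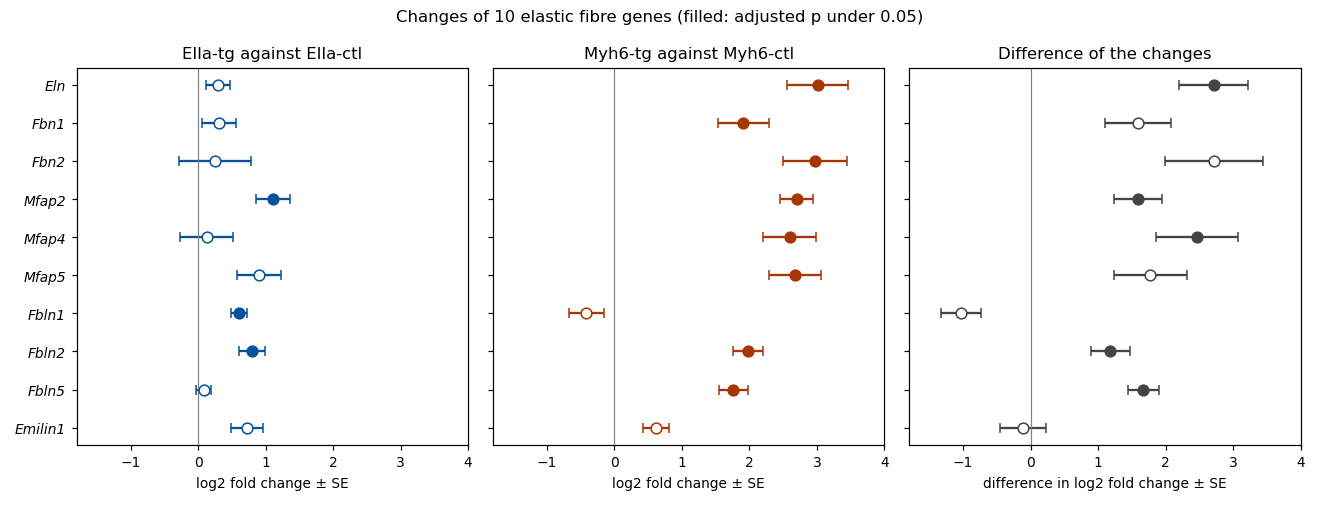
Log2 fold changes of the 10 genes with their standard errors in EIIa-tg against EIIa-ctl hearts, in Myh6-tg against Myh6-ctl hearts, and the difference between those changes. Filled points have an adjusted p under 0.05. In the middle panel 8 filled points lie between 1.76 and 3.01 and Fbln1 lies at -0.42, while the left panel holds 3 filled points, Fbln1, Fbln2 and Mfap2, between 0.61 and 1.10.

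The comparison of EIIa-tg with EIIa-ctl hearts asked the same of mice in which the repeat is expressed throughout the body. In this comparison 3 of the 10 genes rose, Mfap2, Fbln2 and Fbln1, where 8.65% of the 14908 genes tested were called higher. None fell. The median log2 fold change over the 10 genes was 0.46, against 0.02 over all genes tested, and all 10 estimates were above 0. The same 3 genes had no overlap between groups, as did 20.3% of all genes. At the thresholds of the study edgeR called 0 members higher and 0% of all genes. With DESeq2 at the same thresholds 1 member passed, Mfap2, where 3.35% of all genes were called higher.

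Fbln1, which was not called in Myh6-tg hearts, had 104, 116 and 116 CPM in EIIa-ctl and 152, 161 and 201 CPM in EIIa-tg hearts. Its log2 fold change was 0.61 ± 0.12 (adjusted p = 0.0210, edgeR). Fbln2 had 135, 157 and 118 CPM in EIIa-ctl and 222, 185 and 308 CPM in EIIa-tg hearts, a rise by 0.80 ± 0.19 on the log2 scale (adjusted p = 0.0298, edgeR). Mfap2 had 3.17, 4.64 and 4.40 CPM in EIIa-ctl and 7.59, 6.83 and 11.9 CPM in EIIa-tg hearts. The log2 fold change of Mfap2, 1.10 ± 0.25 (adjusted p = 0.0275, edgeR), was the largest of the 10 here. EIIa-tg replicate 3 was the highest heart of its group in all 3 genes.

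Mfap5 and Emilin1 came next. Mfap5 had 33.3, 70.7 and 34.0 CPM in EIIa-ctl and 64.2, 77.9 and 116 CPM in EIIa-tg hearts. Emilin1 had 30.2, 56.3 and 33.4 CPM in EIIa-ctl and 63.1, 54.3 and 81.6 CPM in EIIa-tg hearts. In both, EIIa-ctl replicate 2 lay above the lowest EIIa-tg heart, and neither was called, with adjusted p = 0.0848 and 0.0720 in edgeR's test. Without that control the number called was 5, both of these included, where 1794 of the 15358 genes tested were called.

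For the other members the groups overlapped and the estimates were small. Eln had 22.7 to 35.4 CPM in EIIa-ctl and 33.0 to 42.1 CPM in EIIa-tg hearts, which is 0.29 ± 0.17 on the log2 scale. Fbn1 had 0.31 ± 0.25, Fbn2 0.25 ± 0.54, Mfap4 0.13 ± 0.39 and Fbln5 0.08 ± 0.11, all as log2 fold changes with SE. The EIIa-tg calls were fragile, as were calls over all genes. None of the 3 was called with all 12 hearts in one fit or with the replicate number as a block. The number was also 0 without any one of EIIa-ctl replicate 1, EIIa-ctl replicate 3, EIIa-tg replicate 1 and EIIa-tg replicate 3. In these settings 0 to 227 genes of any kind were called, against 2527 of 14908 in the main fit. The estimates of the 3 genes stayed above 0 in all 19 alternative settings. On the log2 scale they ran from 0.49 to 0.81 for Fbln1, 0.58 to 1.01 for Fbln2 and 0.83 to 1.31 for Mfap2.

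The change in Myh6-tg hearts was then set against that in EIIa-tg hearts in 1 fit of all 12 hearts, which also differ in age and in the way the transgene is switched on. The change was larger in Myh6-tg hearts for 5 of the 10 genes, Eln, Mfap4, Fbln5, Mfap2 and Fbln2, where 1.65% of the 15929 genes tested were called higher. For none was it called smaller, where 2.27% of all genes were called lower. The difference in log2 fold change was 2.71 ± 0.51 for Eln (adjusted p = 0.0140, edgeR) and 2.46 ± 0.61 for Mfap4 (adjusted p = 0.0459). It was 1.67 ± 0.23 for Fbln5 (adjusted p = 0.00416), 1.59 ± 0.36 for Mfap2 (0.0295) and 1.18 ± 0.29 for Fbln2 (0.0447), in the same test.

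Fbn2, at 2.72 ± 0.73, had a difference as large as that of Eln but was not called (adjusted p = 0.0622, edgeR). Fbn1 at 1.60 ± 0.49 and Mfap5 at 1.77 ± 0.54 were not called either (adjusted p = 0.0965 and 0.0968). Fbln1 was the member with the lowest difference, -1.03 ± 0.30 (adjusted p = 0.0822), and it was called lower with DESeq2, with the replicate number as a block and without Myh6-tg replicate 1 (adjusted p = 0.0342). For Emilin1 the difference was -0.11 ± 0.34 (adjusted p = 0.899). Fbln5 was called in all 24 alternative settings at an adjusted p under 0.05, and in edgeR's test it alone passed the thresholds of the study, which 0.283% of all genes passed in the higher direction. With DESeq2 6 members passed them, and 1.32% of all genes. Of the 24 settings Eln missed the threshold in 1, Mfap2 in 9, Mfap4 in 12 and Fbln2 in 14. With the replicate number within model as a block, Eln (adjusted p = 0.0574) and Fbln2 (adjusted p = 0.0856) were not called. With 1 heart left out, the number of members called ranged from 2 to 8, the latter without Myh6-tg replicate 1. Over all genes these fits called 293 to 1727, the most also without Myh6-tg replicate 1, against 624 in the main fit.

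The 2 control groups differ in age, Cre allele and injection, which cannot be told apart. At an adjusted p under 0.05 edgeR called 0 of the 10 genes between them and 0.0334% of the 14990 genes tested. DESeq2 also called 0 members, where it called 429 of the 19244 genes in its fit. In edgeR's test 0 members had an unadjusted p under 0.05, where 1700 of the 14990 genes did. In DESeq2's test Fbln2 had an unadjusted p of 0.0350 (adjusted p = 0.354). The estimates for Myh6-ctl minus EIIa-ctl ran from -0.10 for Fbn1 to 0.47 for Mfap5, each with an SE between 0.15 and 0.55. The groups overlapped for all 10, where 17.4% of all genes did not overlap.

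Levels of different genes were compared as FPKM, the deposited value scaled to transcript length. In EIIa-ctl hearts Fbln1 led with 33.6 ± 2.99 FPKM (SD, n = 3), followed by Mfap5 with 27.5 ± 14.0 and Fbln2 with 25.9 ± 4.59, which did not differ beyond their spread. In Myh6-ctl hearts the same 3 led, Fbln1 with 39.6 ± 9.87, Mfap5 with 38.4 ± 11.4 and Fbln2 with 34.1 ± 10.3 FPKM. In EIIa-tg hearts Mfap5 had 66.8 ± 25.8, Fbln1 57.4 ± 11.7 and Fbln2 51.3 ± 16.6 FPKM, again within their spread. Mfap4 followed in all of these groups, with 18.8 to 24.4 FPKM on average. Emilin1, Fbn1, Fbln5 and Eln lay between 6.79 and 17.5 FPKM on average, with ranges that overlapped between neighbours in each group, and Mfap2 and then Fbn2 came last.

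The order was another one in Myh6-tg hearts. Mfap5 led with 359 ± 161 FPKM, followed by Fbln2 with 174 ± 10.5 and Mfap4 with 154 ± 74.9, whose ranges overlapped. Eln stood at rank 4 with 75.9 ± 34.6 FPKM, after rank 8 in Myh6-ctl hearts. Fbln5 with 53.0 ± 20.1, Fbn1 with 43.9 ± 15.2, Fbln1 with 39.4 ± 14.2, Mfap2 with 31.3 ± 8.47 and Emilin1 with 22.8 ± 6.08 FPKM followed, each with a range that overlapped that of its neighbour. Fbln1 was at rank 7, with nearly the mean FPKM that had put it at rank 1 in Myh6-ctl hearts. Fbn2 stayed last at 0.971 ± 0.387 FPKM.

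Expressed as a share of the summed FPKM of the 10 genes in a heart, which no scaling between hearts can alter, Fbln1 took 21.0% to 24.4% in Myh6-ctl and 3.90% to 4.37% in Myh6-tg hearts. Emilin1 took 5.56% to 8.40% and 1.94% to 2.99% in the same groups. Mfap5 took 17.5% to 26.4% in Myh6-ctl and 29.8% to 41.5% in Myh6-tg hearts. The share of Fbn1 was 2.97% to 7.26% and 4.53% to 4.68%, without a gap between groups. The FPKM of Fbln5 is less certain than that of the others. Its counts per FPKM corresponded to a length of 2805 to 5918 bases depending on the heart, a 2.11-fold range, against at most 1.27-fold for the other members.

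**Figure D3:**
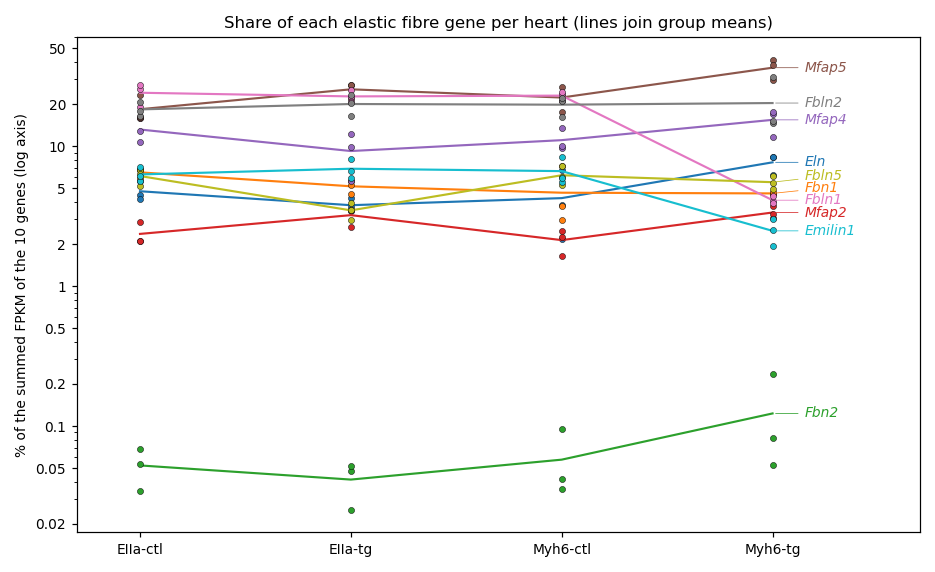
Share of each gene in the summed FPKM of the 10 genes (percent, log axis) for the 3 hearts of each group, with lines through the group means. The line of Fbln1 runs level at 24.1%, 22.7% and 23.0% through 3 groups and falls to 4.11% in Myh6-tg hearts, while Mfap5 reaches 36.4%.

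Ratios of counts between 2 genes of one heart likewise do not depend on how hearts are scaled. The 4 pairs were chosen after the values had been seen. The ratio of Fbln2 to Fbln1 reads was 1.495, 1.04 and 1.37 in Myh6-ctl and 11.7, 5.60 and 5.25 in Myh6-tg replicates 1, 2 and 3. In the EIIa hearts it stayed between 1.01 and 1.53. The Myh6 groups did not overlap, by a mean difference of 2.44 on the log2 scale, with a two-sided exact permutation p = 0.1, the smallest that 3 hearts against 3 allow.

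The ratio of Eln to Fbn1 was 0.306, 0.286 and 0.338 in Myh6-ctl and 0.530, 0.724 and 0.693 in Myh6-tg hearts, a mean log2 difference of 1.05 (exact permutation p = 0.1). In the EIIa hearts it lay between 0.253 and 0.364, with a mean log2 difference of 0.01 (exact permutation p = 1). The ratio of Fbn2 to Fbn1 was 0.0545 in Myh6-tg replicate 1, 0.0124 in replicate 2 and 0.0184 in replicate 3, against 0.0104 to 0.0128 in Myh6-ctl hearts, and these groups overlapped. For the ratio of Mfap5 to Mfap2 the groups overlapped in both models, with mean log2 differences of -0.13 in EIIa-tg and -0.08 in Myh6-tg hearts (exact permutation p = 0.8 for each). Over the 12 tests of ratios the lowest adjusted p was 0.6.

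**Figure D4:**
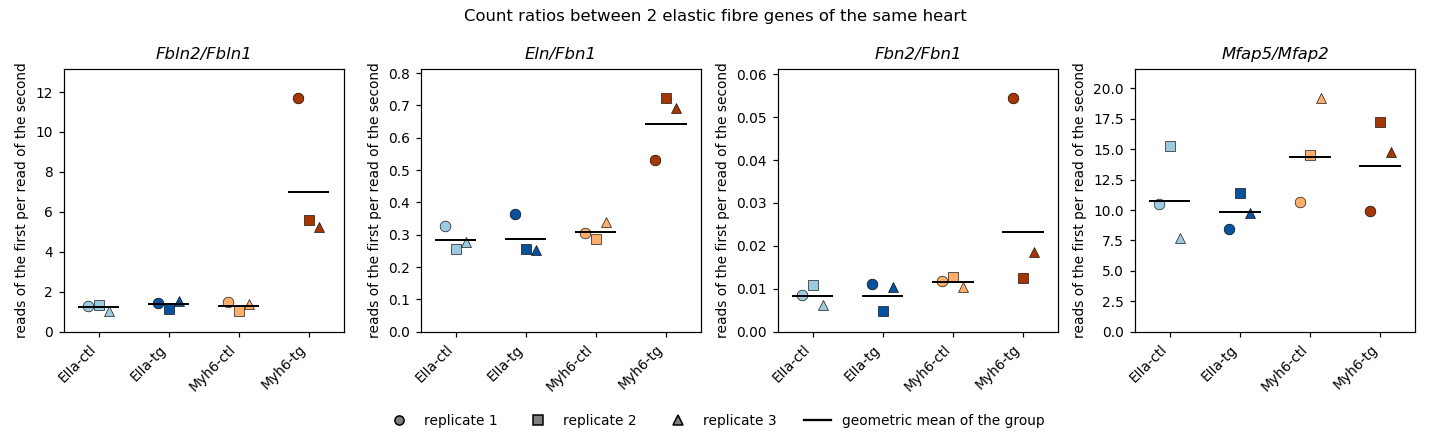
Reads of one gene per read of another in the same heart (linear axes from 0) for 4 pairs, with the hearts as symbols and the geometric mean of the group as a bar. For Fbln2 over Fbln1 and Eln over Fbn1 the 3 Myh6-tg hearts lie above all other hearts, and for Fbn2 over Fbn1 replicate 1 of Myh6-tg stands alone at 0.0545.

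The genes that act on elastic fibres were described by 6 lists with 51 genes in all. In Myh6-tg hearts 22 of the 49 tested rose and 2 fell, with a median log2 fold change of 0.79, where 8.96% of all genes were called higher and 9.38% lower. The EIIa-tg counts were 12 up and 4 down, with a median of 0.31, where 8.65% of all genes were called higher and 8.30% lower. The difference between the changes was called higher in Myh6-tg hearts for 8 and lower for 1, against 1.65% and 2.27% of all genes. Between the control groups edgeR called 0 of them.

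Elastin is made insoluble by the lysyl oxidases. All 5 of them rose in Myh6-tg hearts, with a median log2 fold change of 2.08. Lox went from 9.12 to 11.9 CPM in Myh6-ctl to 460 to 645 CPM in Myh6-tg hearts, a log2 fold change of 5.74 ± 0.26 (adjusted p = 0.000402, edgeR). Loxl3 rose by 3.17 ± 0.33 and Loxl4 by 2.08 ± 0.56 on the log2 scale. In EIIa-tg hearts 1 of 5 was called, Lox, at 1.91 ± 0.31 (adjusted p = 0.0166, edgeR).

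Of the other fibulins, emilins and assembly genes 11 were tested. In Myh6-tg hearts 1 rose, near the share of 8.96% over all genes, and 2 fell. The riser was Fkbp10, a chaperone of collagen and elastin, by 0.98 ± 0.23. Efemp1, which encodes another fibulin, went from 9.87 to 16.4 CPM in Myh6-ctl to 1.65 to 2.01 CPM in Myh6-tg hearts, a log2 fold change of -2.84 ± 0.27 (adjusted p = 0.00205, edgeR). The adhesion protein gene Vtn fell by 1.28 on the log2 scale. In EIIa-tg hearts 1 rose, the fibulin gene Efemp2, which is required for elastic fibre formation, by 0.73 ± 0.17, and 3 fell, Emilin2 by 0.80, Vtn by 0.59 and Mmrn2 by 0.35 on the log2 scale. The median of the list was -0.08 in Myh6-tg and 0.08 in EIIa-tg hearts.

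Among latent TGF-beta binding proteins and TGF-beta ligands 5 of 7 rose in Myh6-tg hearts. Ltbp2, whose protein binds fibrillin and Fbln5, went from 3.71 to 4.99 CPM to 103 to 252 CPM, a log2 fold change of 5.36 ± 0.38 (adjusted p = 0.00102, edgeR). Tgfb2 rose by 2.12 ± 0.56 and Ltbp3 by 1.66 ± 0.23. In EIIa-tg hearts Tgfb2 rose by 2.29 ± 0.33 and Ltbp3 by 0.56 ± 0.14, and Ltbp1 fell by 0.54. Of 7 fibrillin-binding ADAMTS and ADAMTSL genes, Adamtsl2 (2.09 ± 0.42) and Adamts6 (1.34 ± 0.28) rose in Myh6-tg hearts and Thsd4 (0.78 ± 0.21) in EIIa-tg hearts.

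Of 9 genes of the elastin-binding receptor complex and integrins, 4 rose in Myh6-tg hearts, led by the integrin gene Itga5 at a log2 fold change of 2.54 ± 0.19, with Itgb3 at 1.53 ± 0.40 and Itgb5 at 1.36 ± 0.19. In EIIa-tg hearts Itga5 (0.91 ± 0.20) and Ctsa (0.44 ± 0.09) rose. Of 10 elastin-degrading proteases and their inhibitors that were tested, 5 rose in each model. In Myh6-tg hearts the largest rises were those of Mmp14 (2.22 ± 0.44), Mmp2 (2.12 ± 0.25) and Ctsk (2.11 ± 0.30). In EIIa-tg hearts they were those of the macrophage elastase gene Mmp12 (3.54 ± 0.53), the inhibitor gene Timp1 (3.36 ± 0.60) and Ctss (1.50 ± 0.31). All of these had adjusted p values under 0.05 in edgeR's test.

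**Figure D5:**
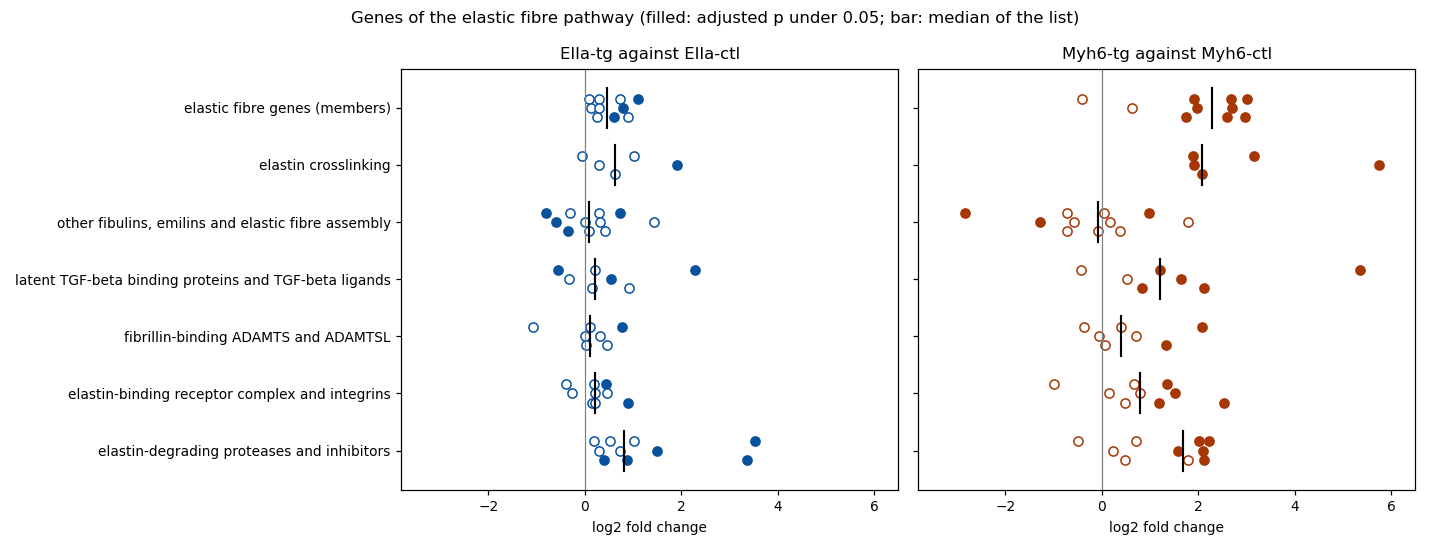
Log2 fold changes of the tested genes in 7 lists, with 1 point per gene, the 2 transgenic groups against their own controls in separate panels, filled points at an adjusted p under 0.05 and a bar at the median of the list. In Myh6-tg hearts all 5 crosslinking genes are filled and lie between 1.89 and 5.74, while the list of other fibulins, emilins and assembly genes has its median at -0.08.

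Markers of the cell types of the heart were followed as lists, and those of cells that make elastic fibre proteins differed among themselves. Over all genes tested 8.96% were called higher and 9.38% lower in Myh6-tg hearts, and 8.65% and 8.30% in EIIa-tg hearts. In Myh6-tg hearts 3 of 8 fibroblast markers rose, Pdgfra, Col1a1 and Col1a2, and the list summed to 1958 to 2453 CPM in Myh6-ctl and 2586 to 6133 CPM in Myh6-tg hearts. Lum (mean CPM of 241 in Myh6-ctl, 139 in Myh6-tg hearts) and Ddr2 (43.2 and 28.4) had estimates below 0 and were not called. Of 6 markers of activated fibroblasts 3 rose, Postn, Cthrc1 and Ltbp2, and the list summed to 214 to 341 CPM and 1078 to 2446 CPM. Acta2 (179 and 163 CPM on average) and Fap (6.87 and 5.80) were not called. In EIIa-tg hearts 2 of 8 fibroblast markers rose, Pdgfra and Dcn, with sums of 1458 to 2100 CPM in EIIa-ctl and 2665 to 3837 CPM in EIIa-tg hearts. Of the activated list 1 of 6 rose, Tnc, with sums of 204 to 424 CPM and 186 to 422 CPM. No marker of either list was at 0. Their part in the members' changes was not tested.

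Of the 8 smooth muscle and pericyte markers Myh11, the contractile myosin of smooth muscle, fell by 1.08 on the log2 scale in Myh6-tg hearts, from 27.7 to 64.7 CPM to 19.2 to 25.5 CPM, while Cnn1 and Des rose. The list summed to 2909 to 4223 CPM in Myh6-ctl and 9520 to 13793 CPM in Myh6-tg hearts, of which Des, which cardiomyocytes also express, made up 1578 to 3167 CPM and 8087 to 12740 CPM. Cardiomyocyte markers fell for 3 of 7, Myh6, Atp2a2 and Tnni3. They summed to 30587 to 40361 CPM in Myh6-ctl hearts and to 32263, 12793 and 9885 CPM in Myh6-tg replicates 1, 2 and 3. In EIIa-tg hearts 2 of the 8 smooth muscle markers rose, with a median log2 fold change of -0.08 over the list. That list summed to 2859 to 3108 CPM in EIIa-ctl and 3956 to 5494 CPM in EIIa-tg hearts. In the same comparison 1 of 3 valve markers tested rose and 1 of 7 cardiomyocyte markers fell. Over all genes 8.65% were called higher and 8.30% lower. The cardiomyocyte markers summed to 39461 to 48176 CPM in EIIa-ctl and 18221 to 34779 CPM in EIIa-tg hearts, without overlap. All 5 leukocyte markers tested rose there, with sums of 140 to 207 CPM in EIIa-ctl and 268 to 364 CPM in EIIa-tg hearts, while 0 of 6 were called in Myh6-tg hearts. The 4 valve and endocardium markers summed to 55.9 to 106 CPM in Myh6-ctl and 48.9 to 64.4 CPM in Myh6-tg hearts with 0 of the 3 tested called, Hapln1 being at or near 0 in the controls. The lung markers Sftpc, Sftpb and Scgb1a1 summed to at most 0.104 CPM in any heart, about the level of 3 counts. The part of these lists in the members' changes was not tested.

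The 4 atrial markers, of which Nppa made up nearly the whole sum and is also made by ventricular muscle under load, were higher as a sum, without overlap, in the transgenic hearts of both models. They summed to 116 to 356 CPM in EIIa-ctl and 501 to 781 CPM in EIIa-tg hearts, where Nppa rose by 1.46 ± 0.36 on the log2 scale (adjusted p = 0.0326, edgeR). In the other model they summed to 153, 1816 and 760 CPM in Myh6-ctl replicates 1, 2 and 3 and to 4188 to 6524 CPM in Myh6-tg hearts. There Myl4 rose by 3.11 ± 0.58 (adjusted p = 0.0131, edgeR), while Nppa (2.51 ± 0.77, adjusted p = 0.0581) was not called. Sln and Myl7, the other atrial markers, had at most 0.261 CPM outside Myh6-tg hearts and at most 1.32 and 4.26 CPM in them. Endothelial markers fell for 3 of 6 in EIIa-tg hearts, with sums of 923 to 1067 CPM in EIIa-ctl and 736 to 810 CPM in EIIa-tg hearts, and 0 of 6 were called in Myh6-tg hearts, with sums of 591 to 1270 CPM and 597 to 763 CPM. The lists of epicardium, adipocytes and skeletal muscle had at most 1 gene called in either model. Of the 4 skeletal muscle genes 2 were tested, and 1 of these fell in each model. The skeletal muscle list summed to 2234 to 2893 CPM in EIIa-ctl and 780 to 1900 CPM in EIIa-tg hearts. In the other model it summed to 1675 to 2513 CPM in Myh6-ctl and 395 to 1326 CPM in Myh6-tg hearts. The part of these lists in the members' changes was likewise not tested.

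For Eln, Fbn1 and Fbn2 the genes with the most like pattern over the 12 hearts were found among 14648 genes, by the root mean square difference of log2 CPM after each gene was centred on its mean, which is a description without a test. Nearest to Eln were the fibrillar collagen gene Col5a2 (0.26), the lysyl oxidase gene Loxl3 (0.27) and Dok1 (0.41). Nearest to Fbn1 were Galnt16 (0.26), the lysyl oxidase gene Loxl1 (0.26) and the intermediate filament gene Nes (0.30). Nearest to Fbn2 were the activin subunit gene Inhbb (0.42), the membrane metalloprotease gene Mmp14 (0.47) and a locus the authors named NewGene_2046 (0.47). Among the members, Fbn1 was at rank 19 for Eln with 0.52, and Fbln1 was farthest from Eln at 1.51.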

How the data were processed

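Heart RNA of 12 mice was made into libraries with the NEBNext Ultra kit and sequenced from both ends on a NovaSeq instrument. Whether counting used strand, the counting program and the annotation release are not given in the sources used here. By the paper reads were mapped to GRCm38 with HISAT2, and the submitters' processing notes name HISAT2 2.0.4, StringTie 2.2.1 and DESeq2. The authors deposited whole-number read counts without normalization and FPKM values, which scale the fragments of a gene to transcript length and to the fragments of the heart. The labels of EIIa-tg replicates 2 and 3 name other genotypes than replicate 1, and these hearts were grouped by their titles.

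In R 4.3.3, edgeR 4.0.16 was used for the filter on low counts (filterByExpr), for TMM factors and for the quasi-likelihood test (glmQLFit, then glmQLFTest), in the 6 hearts of a comparison or, for the difference between models, in all 12. A gene was called at a Benjamini-Hochberg adjusted p under 0.05 over all genes tested. Printed levels (CPM) are counts scaled to the TMM-adjusted totals of the 12 hearts. The most alike genes were taken on log2 CPM with a prior count of 2. Positions, exons and overlaps came from GENCODE M21, promoters from RefSeq, and protein sequences were not used here. Mice are labelled as biological replicates. Deviations from group means correlated between same-numbered Myh6-ctl and Myh6-tg hearts (0.285, 0.184 and 0.173 over 15929 genes). A fit with these numbers as a block is therefore given as an alternative, while the main estimates come from fits without a block. Replicate 1 was the only heart of each group with abundant Y transcripts, so sex and number partly coincide. With the block the number of members called in Myh6-tg hearts was the same, with log2 fold changes from 1.77 for Fbln5 to 3.03 for Eln.

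The members and the lists were chosen with earlier results of these data known. All 10 members are named in each comparison, and of each other list the called genes with the largest change, up to 3 a comparison. Fit and counts were tested on simulated data. Alternatives were DESeq2 1.42.0, RLE factors, total counts, other filters, the thresholds of the study, bias-adjusted quasi-likelihood, removal of the mt- genes, limma 3.58.1 on log2(FPKM + 1) and log2(FPKM + 0.1), a replicate block, all 12 hearts in one fit, and each heart left out. Leaving out replicate 1 of every group, and DESeq2 at the thresholds of the study, were added after seeing the data. Figures were drawn with matplotlib 3.10.9.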

Additional observations from a re-analysis of the deposited data

Results flagged for a closer look

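The change of 5 members differed between the models in the test of the difference itself (edgeR's quasi-likelihood test over 12 hearts). The log2 fold change in Myh6-tg hearts exceeded that in EIIa-tg hearts by 2.71 for Eln, 2.46 for Mfap4, 1.67 for Fbln5, 1.59 for Mfap2 and 1.18 for Fbln2. With the replicate number as a block within each model, Eln (adjusted p = 0.0574) and Fbln2 (adjusted p = 0.0856) were not called. In all 5 the 3 Myh6-tg hearts were above the 3 Myh6-ctl hearts, and in Mfap2 and Fbln2 the 3 EIIa-tg hearts were also above their controls. Age, Cre allele, tamoxifen and the time of expression differ between the models, as does the Esr1 level of their controls, and cannot be told apart. Groups of 3 hearts were not searched for single outlying hearts.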

How the results depend on the processing

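In Myh6-tg hearts the number of members called ranged from 7 to 9 over the 21 alternatives, with 8 as reported, and was 8 with the replicate block. Over all genes the number at an adjusted p under 0.05 ran from 798 without Myh6-ctl replicate 1 to 5049 with all 12 hearts in one fit. In EIIa-tg hearts the 3 calls became 1 with DESeq2 at the thresholds of the study, and 0 with edgeR at those thresholds, with the replicate block, with all 12 hearts in one fit, with log2(FPKM + 1) and no filter, and without replicate 1 of every group, and 5 with log2(FPKM + 1) or log2(FPKM + 0.1) after the filter. With 1 heart left out they ranged from 0 (without replicate 1 or 3 of EIIa-ctl or of EIIa-tg) to 5 (without EIIa-ctl replicate 2). The number over all genes moved too, from 2527 to 1 with the replicate block and 1 with log2(FPKM + 1) and no filter. It was 227 with all 12 hearts in one fit and 0 without replicate 1 of every group. With the filtered log2(FPKM + 1) and log2(FPKM + 0.1) fits it was 3028 and 2988. The left-out fits without a member called had 0 to 133, and that without EIIa-ctl replicate 2 had 1794. Same-numbered EIIa hearts correlated at 0.0602, -0.0704 and -0.0500, and the control groups at 0.124, 0.0604 and -0.0312. Numbers were therefore not taken to pair these hearts, though the block in the difference between models includes the EIIa hearts too.

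For the difference between models the 5 calls became 1 at the thresholds of the study, Fbln5 (6 with DESeq2), and 9 with DESeq2, 8 higher and 1 lower. With the replicate block there were 4, 3 higher and Fbln1 lower, and Eln (adjusted p = 0.0574) and Fbln2 (0.0856) were not called. With 1 heart left out the number ranged from 2 to 8. It was 2 without Myh6-tg replicate 2 or 3, EIIa-tg replicate 1 or 2, or EIIa-ctl replicate 2 or 3, 3 without EIIa-ctl replicate 1 or any Myh6-ctl heart, and 8 without Myh6-tg replicate 1. Over all genes 624 were called as reported, 1396 with DESeq2 and 505 with the replicate block. With 1 heart left out that number ran from 293 to 1727, the most without Myh6-tg replicate 1. Fits with fewer hearts have fewer degrees of freedom. Between control groups 0 members were called in all 21 alternatives.

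Signs turned for members that were not called. Emilin1 in the difference between models was 0.11 with total counts, 0.072 and 0.058 with log2(FPKM + 1) and log2(FPKM + 0.1), 0.072 with log2(FPKM + 1) and no filter, 0.23 without replicate 1 of every group, and -0.44 to 0.057 with 1 heart left out. In EIIa-tg hearts Mfap4 ranged from -0.088 to 0.51 and Fbn2 from -0.20 to 0.76 with 1 heart left out. Between control groups, with log2(FPKM + 1), the same with no filter, log2(FPKM + 0.1) and the replicate block, Eln was -0.020, -0.020, -0.037 and -0.035 and Mfap4 0.00846, 0.00846, 0.0117 and 0.0101. Without replicate 1 of every group Eln was -0.32, Mfap2 -0.017, Fbn2 -0.29 and Emilin1 -0.0092. With 1 heart left out Eln ranged from -0.35 to 0.33, Mfap4 from -0.25 to 0.35, Mfap2 from -0.068 to 0.22, Fbn1 from -0.52 to 0.16 and Fbn2 from -0.18 to 0.77. The cause was not tested.

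Total counts in place of TMM moved the median over all genes (log2 scale) from 0.03 to 0.43 in Myh6-tg and from 0.02 to 0.21 in EIIa-tg hearts. In the same order it was 0.34 and 0.16 with log2(FPKM + 1) after the filter and 0.43 and 0.20 with log2(FPKM + 0.1). With log2(FPKM + 1) and no filter it was 0.14 and 0.08. Relative to that median, with total counts, Eln was at 3.00, Emilin1 at 0.61 and Fbln1 at -0.43 in Myh6-tg hearts. With 3 hearts a group a p that misses the threshold does not show that levels were alike.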
